A study of Homo sapiens with 4 samples.

Results

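The m6A writer genes are the 9 genes whose proteins place N6-methyladenosine on RNA: METTL3, METTL14, WTAP, VIRMA, ZC3H13, CBLL1, RBM15, RBM15B and METTL16. They were chosen by name from the 28198 genes of the deposited table, and all 9 were found. The line MDA-MB-231, from a human breast cancer, had been depleted of METTL3 with a lentiviral shRNA and then reconstituted from a lentiviral cDNA with METTL3 of wild-type sequence (WT-METTL3) or with a lysine exchanged for glutamine (K177Q-METTL3), a change used to mimic acetylation of that lysine. Lysates of cycloheximide-treated cells were separated on sucrose gradients, and the fractions were pooled into a sub-polysome fraction (free subunits and monosomes) and a polysome fraction (mRNAs that carry several ribosomes). Poly(A)-selected RNA of each pool was sequenced, and 4 libraries were analysed here, all labelled replicate 2: WT sub-polysome, WT polysome, K177Q sub-polysome and K177Q polysome. Whether each reconstituted line was 1 clone or a pool is not given in the sources used here. With 1 library per group there is no replicate error and no test, and each difference below compares single libraries.

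METTL3 and METTL14 form the catalytic pair of the nuclear m6A methyltransferase: METTL3 transfers the methyl group and METTL14 helps to hold the RNA. WTAP, VIRMA, ZC3H13, CBLL1 (Hakai), RBM15 and RBM15B make up the regulatory part that positions the pair on its targets, most m6A lying near stop codons and in long internal exons. METTL16 is a separate writer that acts alone on U6 small nuclear RNA and on the mRNA of MAT2A, the enzyme that makes the methyl donor S-adenosylmethionine.

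The genotypes differ in the METTL3 codon that the label K177Q names, so its reference sequence is shown here. In GENCODE 44 on GRCh38, METTL3 lies at chr14:21498133-21511342 on the minus strand, and this codon, one of 580, is in exon 3 of 11, at chr14:21503365-21503367. The stretch printed here covers it, in capitals, with 9 codons on either side, on the coding strand (chr14:21503338-21503394). The bases of the introduced cDNA were not analysed here.
METTL3 exchanged codon: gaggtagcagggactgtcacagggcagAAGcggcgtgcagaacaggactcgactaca

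The start codon context is shown for 4 of the genes, the catalytic pair and the regulatory subunits with the highest (ZC3H13) and lowest (RBM15) change in polysome ratio between genotypes, because the bases around the ATG are a known influence on initiation. Each runs from 9 bases before the ATG to 3 after it on the coding strand, taken from the canonical GENCODE 44 transcript (GRCh38), with the ATG in capitals: METTL3 at chr14:21511218-21511232, METTL14 at chr4:118685526-118685540, ZC3H13 at chr13:46045502-46045516 and RBM15 at chr1:110339397-110339411.
METTL3: gagactaggATGtcg
METTL14: agttggaacATGgat
ZC3H13: tagtacaaaATGtca
RBM15: aattggccaATGagg
A purine stood at position -3, counted from the A of the ATG, in 8 of the 9 writer genes, RBM15 with a C being the exception, against 87.6% of the measured genes with a coding sequence. A G followed the ATG at position +4 in 4 of the 9 (METTL14, VIRMA, CBLL1 and METTL16), against 54.7%. At least 1 ATG lay upstream of the start codon in 4 of the 9 (METTL14, WTAP, RBM15B and METTL16), against 37.6%. The leader upstream of the ATG in the METTL3 construct was not analysed here, so the METTL3 context applies to the endogenous transcript only.

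The libraries were given in FPKM, fragments scaled to transcript length and to the mapped fragments of the library, which allows levels to be compared between genes. As a share of its library, a value cannot tell more mRNA per cell from less RNA of other genes in the same fraction. FPKM summed to between 767949 and 1037594 per library. The file gives no counts, and the step of the lowest values implies roughly 23500000 to 25600000 fragments per library. Counting errors below come from this approximation and leave out any variation between cultures, gradients or library preparations. Markers of the line partly matched its label. VIM was at 677 to 1543 FPKM and CD44 at 110 to 151 FPKM. CAV1 was at 88.6 to 110 FPKM and AXL at 158 to 235 FPKM, but FN1, also expected to be high, had 5.43 to 14.5 FPKM. The hormone receptor genes ESR1 and PGR stayed at or below 0.0119 and 0.00659 FPKM. However, ERBB2 had 12.2 to 28.3 FPKM and the epithelial gene EPCAM 6.20 to 9.91 FPKM, with CDH1 at 0.219 to 0.632 FPKM.

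Averaged over the libraries, all 9 writer genes reached the minimum level of 1 FPKM that was set, as did 10905 genes in all. METTL3 had 9.39 FPKM in the WT sub-polysome, 38.7 FPKM in the WT polysome, 5.07 FPKM in the K177Q sub-polysome and 29.5 FPKM in the K177Q polysome library. It ranked 3 among the writer genes in both sub-polysome libraries and first in both polysome libraries, where it took 42.8% (WT) and 37.6% (K177Q) of the summed FPKM of the 9 genes. Its share in the sub-polysome libraries was 13.8% and 9.29%. These values hold the reconstituted transcript together with what is left of the endogenous one, which cannot be told apart in a gene-level value, and FPKM divides by an annotated length that a cDNA may not share.

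METTL14, at chr4:118685392-118715433, had 2.80 and 3.05 FPKM in the WT sub-polysome and polysome libraries and 2.43 and 2.97 FPKM in those of K177Q cells. It therefore stayed within 2.43 to 3.05 FPKM, and METTL3 was above it in each library. METTL16, at chr17:2405562-2511891, was at a like level, with 2.86 and 3.75 FPKM in WT and 2.58 and 3.77 FPKM in K177Q cells, higher in polysomes in both under every scaling tried.

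Among the regulatory subunits, WTAP, the scaffold that binds the catalytic pair (chr6:159725585-159756319), was the most abundant. It had 29.2 and 22.0 FPKM in the WT sub-polysome and polysome libraries and 23.1 and 20.4 FPKM in K177Q cells, first in both sub-polysome and second in both polysome libraries. RBM15B, an RNA-binding adaptor that recruits the complex to its targets (chr3:51391285-51397908), followed with 12.3 and 10.8 FPKM in WT and 11.5 and 10.5 FPKM in K177Q cells. Both were lower in polysomes than in the sub-polysome fraction of the same cells, but in K177Q cells the log2 ratio turned from -0.17 to 0.26 for WTAP and from -0.13 to 0.30 for RBM15B after rescaling the libraries to equal totals. That rescaling moved the median of all genes from 0.16 to 0.59. Relative to this median WTAP was at -0.34 before and -0.33 after it, and RBM15B at -0.30 and -0.29.

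The other subunits had between 1.06 and 5.88 FPKM. VIRMA, the largest scaffold subunit (chr8:94487689-94553529), had 3.20 and 5.88 FPKM in WT and 2.50 and 5.03 FPKM in K177Q cells. CBLL1, a RING-finger protein (chr7:107743073-107761667), had 3.53 and 2.59 FPKM in WT and 3.13 and 2.60 FPKM in K177Q cells. VIRMA was thus higher in polysomes, and CBLL1 lower, in both genotypes, although CBLL1 in K177Q cells turned from a log2 ratio of -0.26 to 0.16 after the same rescaling. Relative to the median of all genes, CBLL1 was at -0.42 before and -0.43 after it. RBM15, the paralogue of RBM15B (chr1:110338506-110346681), had 3.01 and 1.89 FPKM in WT and 3.21 and 1.85 FPKM in K177Q cells. ZC3H13, a zinc-finger protein that helps to keep the complex in the nucleus (chr13:45954465-46052759), had 1.73 and 1.87 FPKM in WT and 1.06 and 1.78 FPKM in K177Q cells. Its K177Q sub-polysome value was the lowest of any writer gene in any library.

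The order of the 9 genes was the same in both polysome libraries: METTL3, WTAP, RBM15B, VIRMA, METTL16, METTL14, CBLL1, RBM15, ZC3H13. RBM15 and ZC3H13 did not differ beyond counting error in either, nor did METTL14 and CBLL1 in K177Q cells. In the WT sub-polysome library the order was WTAP, RBM15B, METTL3, CBLL1, VIRMA, RBM15, METTL16, METTL14, ZC3H13. No neighbours from CBLL1 to METTL14 in that order differed beyond counting error. In the K177Q sub-polysome library RBM15 stood ahead of VIRMA, by 0.36 on the log2 scale (counting SE 0.12), which exceeds counting error there, while the opposite order in WT cells did not. RBM15 also stood ahead of CBLL1, and METTL16 ahead of VIRMA, each pair within counting error.

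**Figure D1:**
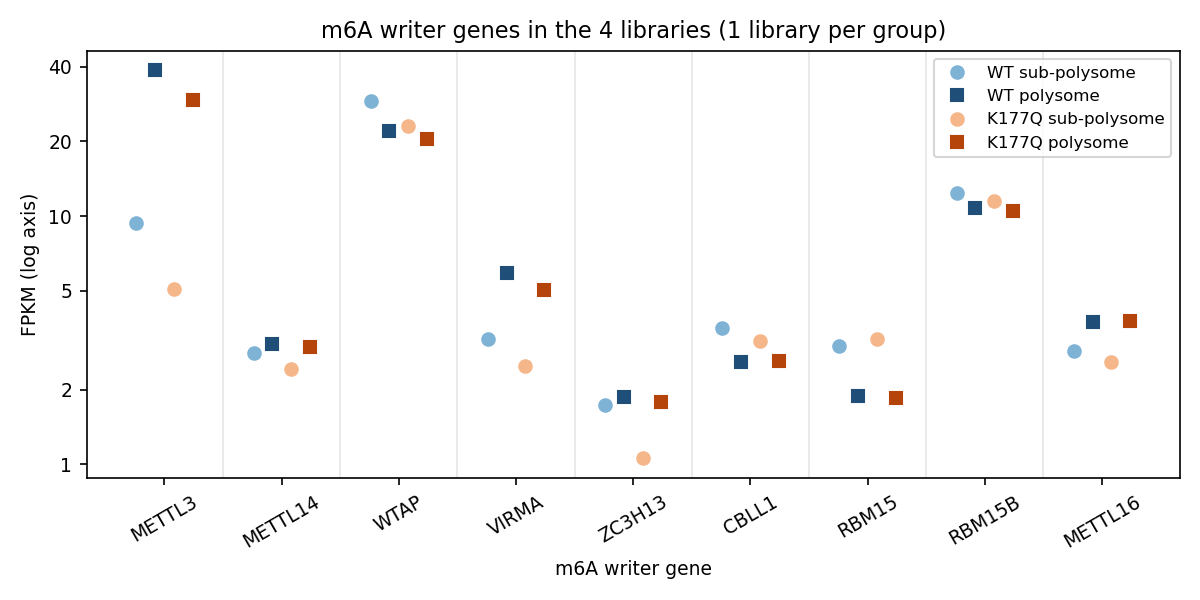
FPKM (log axis) of the 9 m6A writer genes, with 1 point per library: circles for the sub-polysome and squares for the polysome fraction, blue for WT and orange for K177Q. METTL3 has the widest range, from 5.07 to 38.7 FPKM, and its polysome points lie above its sub-polysome points in both genotypes.

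Some writer genes share their locus with a gene on the opposite strand, and whether the counting used strand is not given in the sources used here. METTL3 overlaps TOX4, WTAP overlaps SOD2 and RBM15B overlaps DCAF1 in GENCODE 44, and these had up to 15.5, 69.4 and 3.67 FPKM. Their part in the writer values was not tested.

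The first comparison asked how each writer mRNA was split between polysomes and lighter fractions in each genotype. METTL3 stood apart: its FPKM was 4.09-fold higher in polysomes than in the sub-polysome fraction of WT cells, a log2 ratio of 2.03 (counting SE 0.074), and 5.72-fold higher in K177Q cells, 2.52 (0.10). Log2 ratios between libraries, and their folds, were taken after adding 0.1 FPKM to each value. Only 40 of the 10905 genes had a higher ratio in WT cells and 17 in K177Q cells, and 10 were higher in both. These METTL3 ratios hold the reconstituted transcript with what is left of the endogenous one. The untranslated regions of the construct were not analysed here, so the ratios cannot be read as those of endogenous METTL3 mRNA. VIRMA was the other gene at least 1.5-fold higher in polysomes of both genotypes, with log2 ratios of 0.86 (counting SE 0.078) in WT and 0.98 (0.090) in K177Q cells.

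In WT polysomes 2 of the 9 genes passed 1.5-fold upward, against 28.1% of all genes, and 1 was at least 1.5-fold lower, against 19.1%. In K177Q cells 3 of the 9 were higher, against 30.2%, and 1 was lower, against 21.3%. These counts are near the background. After rescaling to equal totals, which moved the median of all genes to 0.28 in WT and 0.59 in K177Q cells, 2 were higher and 0 lower in WT, against 34.2% and 15.7% of all genes. In K177Q cells 5 were then higher and 0 lower, against 50.2% and 12.6%. These were METTL3, METTL14, VIRMA, ZC3H13 and METTL16. METTL14 was then at 0.70, which is 0.11 relative to the median of all genes. The median over the 9 was 0.11 in WT and 0.28 in K177Q cells, beside 0.14 and 0.16 over all genes. Without METTL3 the median of the other 8 was -0.04 and 0.07.

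RBM15 was the gene at least 1.5-fold lower, with a log2 ratio of -0.65 (counting SE 0.14) in WT and -0.76 (0.15) in K177Q cells. It was no longer 1.5-fold lower after that rescaling, at -0.52 and -0.35, or with 1 FPKM added, at -0.47 and -0.56. Relative to the median of all genes, RBM15 was at -0.79 in WT and -0.93 in K177Q cells, and after the rescaling at -0.80 and -0.94. ZC3H13 was the gene added in K177Q cells, at 0.70 (counting SE 0.13) against 0.11 (0.11) in WT cells. Its K177Q value was 0.54 once centred on the median of all genes and 0.43 with 1 FPKM added, both under 1.5-fold. The remaining genes lay between -0.43 for CBLL1 and 0.38 for METTL16 in WT cells, and between -0.26 for CBLL1 and 0.53 for METTL16 in K177Q cells.

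**Figure D2:**
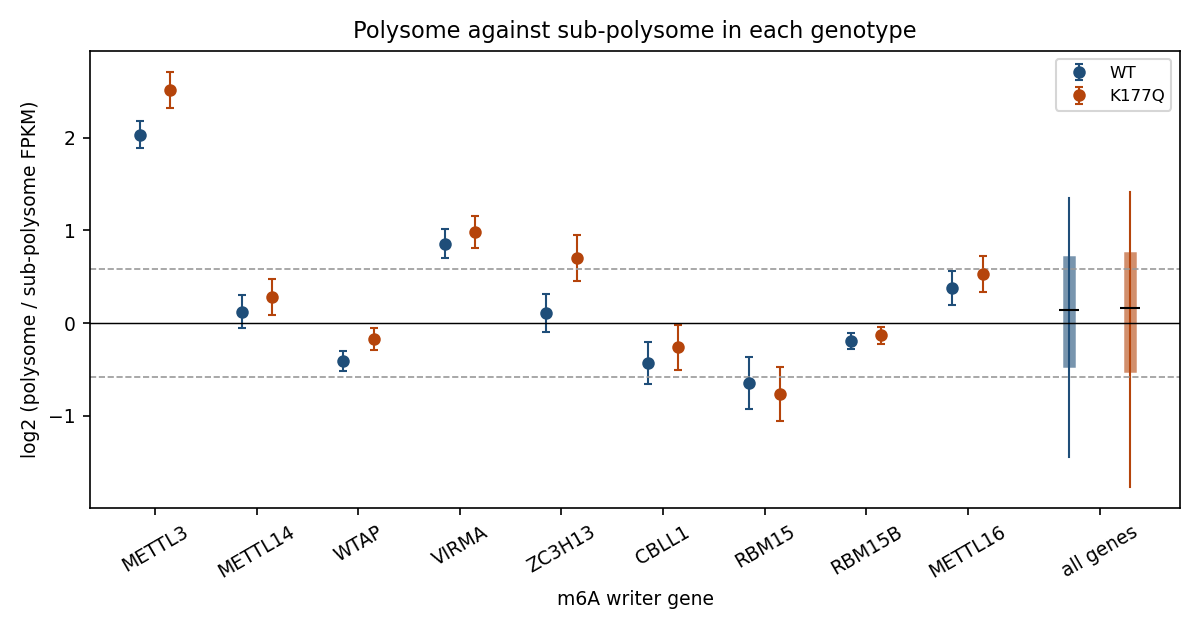
Log2 ratio of polysome to sub-polysome FPKM of each writer gene in WT (blue) and K177Q cells (orange). Bars are 95% counting intervals and leave out variation between libraries, dashed lines mark 1.5-fold, and on the right the thick bar, thin line and tick give the middle 50%, the middle 90% and the median of the 10905 genes. METTL3, at 2.03 and 2.52, lies above the middle 90% of all genes in both genotypes.

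Coding length was set beside this ratio because a longer coding sequence can carry more ribosomes. Across the 10278 genes with a coding length, Spearman's rho of the ratio with coding length was 0.23 in WT and 0.39 in K177Q cells, as a description within the same libraries. Writer coding lengths ran from 1188 bases for WTAP to 5436 bases for VIRMA, against a median of 1317 bases over those genes. METTL3, with 1740 coding bases, had a higher ratio than all but 4 of the 2214 genes within 20% of its coding length in WT cells and all but 1 in K177Q cells. The medians of these genes were 0.28 and 0.37. The METTL3 ratios include the introduced cDNA, which those of the other genes do not. RBM15, with 2931 coding bases, lay at percentile 7.77 of the 1223 genes of like coding length in WT and at percentile 3.03 in K177Q cells. VIRMA, the longest, lay at percentile 73.7 and 64.5 of 327 such genes. RBM15B, with 2670 coding bases, lay at percentile 24.8 and 21.5 of 1433.

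The second comparison asked how the writer mRNAs of K177Q cells differed from those of WT cells within each fraction. METTL3 was lower in K177Q cells in both fractions. Each line carries its own introduced METTL3 cDNA, so its dose and the depth of depletion cannot be told apart from the genotype in these values. In the sub-polysome fraction it was 1.83-fold lower, a log2 ratio of -0.88 (counting SE 0.11), which placed it 85 from the lowest of the 10905 genes. In polysomes it was 1.31-fold lower, at -0.39 (0.050), at percentile 8.09 of all genes. METTL3 stayed lower in both fractions under every scaling tried.

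ZC3H13 was the other gene past 1.5-fold, lower in the K177Q sub-polysome library by a log2 ratio of -0.66 (counting SE 0.13). In polysomes its log2 ratio of K177Q to WT was -0.07 (0.11). These 2 genes were 2 of 9 at least 1.5-fold lower in the sub-polysome fraction, against 2.94% of all genes, and 0 of 9 were higher, against 4.01%. With 1 FPKM added to each value, METTL3 alone remained past 1.5-fold.

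The other sub-polysome values were -0.35 for VIRMA (counting SE 0.097), -0.34 for WTAP (0.056), -0.19 for METTL14 (0.099), -0.17 for CBLL1 (0.11), -0.14 for METTL16 (0.10), -0.09 for RBM15B (0.046) and 0.09 for RBM15 (0.13). So 8 of the 9 genes were below 0 in this fraction, where 50.6% of all genes were, and all 9 were below 0 after rescaling to equal totals, where 75.9% of all genes were and the median of all genes moved from -0.004 to -0.21. This ratio also moved with coding length, with Spearman's rho of -0.31 across the 10278 genes, against 0.26 in polysomes, and its part in the writer values was not tested. Among genes within 20% of its coding length, METTL3 lay at percentile 0.903 in the sub-polysome fraction, ZC3H13 at 3.76, WTAP at 10.0 and VIRMA at 21.4. The medians of those genes were -0.04, -0.15, 0.03 and -0.16. METTL14, CBLL1, METTL16, RBM15B and RBM15 lay at percentiles 24.6, 29.0, 35.7, 55.2 and 79.3 of theirs. In polysomes 0 of the 9 genes passed 1.5-fold, against 5.25% of all genes in either direction. Apart from METTL3, the polysome values ran from -0.22 for VIRMA (counting SE 0.069) to 0.007 for METTL16 (0.088). As deposited, 7 of the 9 genes were below 0, where 53.7% of all genes were, and after rescaling to equal totals 3 were, METTL3, VIRMA and WTAP, where 39.1% of all genes were. METTL14, ZC3H13, RBM15 and RBM15B changed sign with that rescaling, which moved the median of all genes from -0.02 to 0.07.

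**Figure D3:**
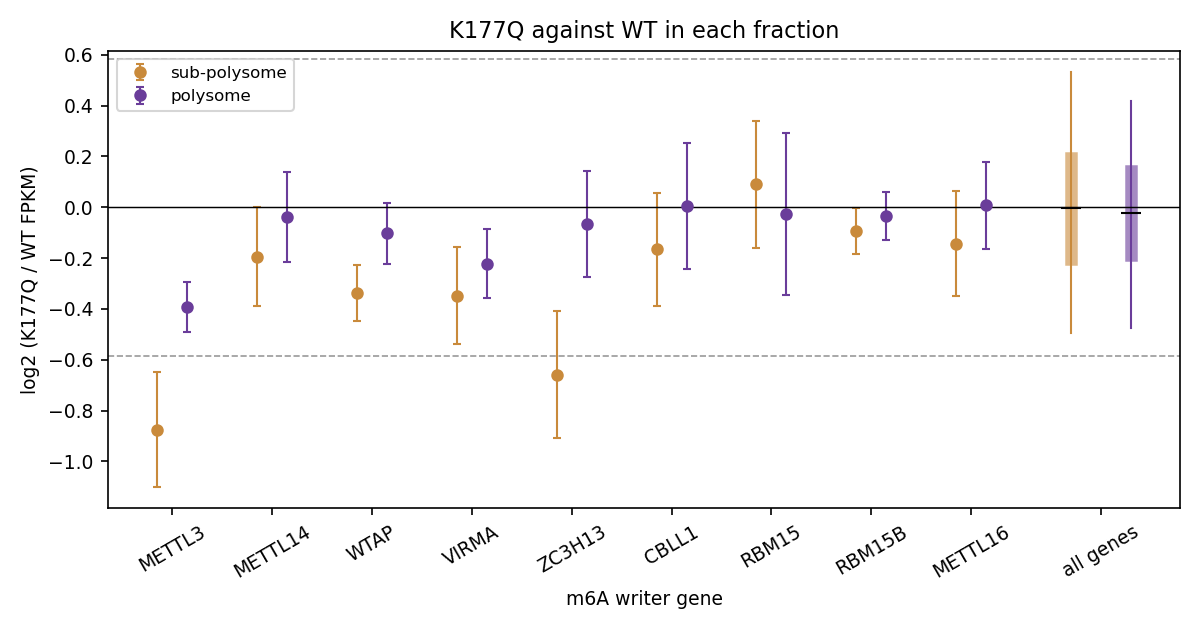
Log2 ratio of K177Q to WT FPKM of each writer gene in the sub-polysome (ochre) and polysome fraction (purple). Bars are 95% counting intervals, dashed lines mark 1.5-fold, and the summary of all 10905 genes on the right has the same form as in the plot of polysome ratios. METTL3 and ZC3H13 lie below the lower dashed line in the sub-polysome fraction, at -0.88 and -0.66.

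Ratios between genes of the same library do not depend on how the libraries are scaled, so the FPKM of each writer gene, with nothing added, was also divided by that of METTL14, the partner of METTL3. METTL3 was at 3.36 times METTL14 in the WT sub-polysome and 2.09 times in the K177Q sub-polysome library. In polysomes it was at 12.7 times METTL14 in WT and 9.92 times in K177Q cells. The K177Q ratio was thus 62.1% of the WT ratio in the sub-polysome fraction, a log2 difference of -0.69 (counting SE 0.15), and 78.3% in polysomes, -0.35 (0.10). Dose of the introduced METTL3 and genotype cannot be told apart here either. From sub-polysome to polysome, the ratio of METTL3 to METTL14 was 3.77-fold higher in WT and 4.76-fold higher in K177Q cells.

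Of the other genes set against METTL14 between genotypes, ZC3H13 was at 70.4% of its WT ratio in the sub-polysome fraction, a log2 difference of -0.51 (counting SE 0.16). In polysomes this difference was -0.03 (0.14). The remaining 6 genes lay between 89.6% for VIRMA and 123% for RBM15 in the sub-polysome fraction and between 87.9% for VIRMA and 103% for METTL16 in polysomes.

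**Figure D4:**
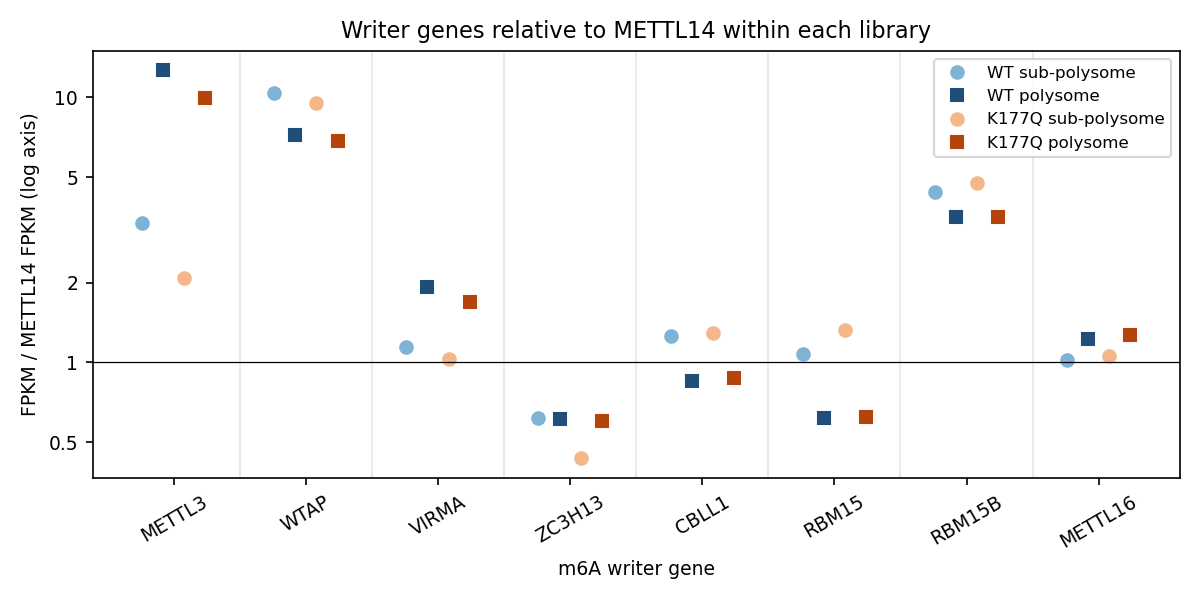
FPKM of 8 writer genes divided by that of METTL14 in the same library (log axis), with circles for sub-polysome, squares for polysome, blue for WT and orange for K177Q. METTL3 spans 2.09 to 12.7 times METTL14, with each K177Q point below the WT point of the same fraction.

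The third comparison took the translation efficiency of each gene, polysome over sub-polysome, in K177Q against WT cells. ZC3H13 had the highest ratio of the writer genes, 1.51-fold higher in K177Q cells, a log2 value of 0.59 with a counting SE of 0.17, an error that spans the threshold of 1.5-fold. It was 0.58 with median-of-ratios size factors and 0.36 with 1 FPKM added, both under the threshold. K177Q against WT, ZC3H13 was at -0.07 in polysomes and -0.66 in the sub-polysome fraction. Its values past 1.5-fold here and in the earlier comparisons therefore share the K177Q sub-polysome value of 1.06 FPKM, about 199 fragments. METTL3 had the next highest translation efficiency ratio, 1.40-fold or 0.48 (0.13), which is 0.49 above the median of all genes. As deposited, 1 of 9 writer genes was at least 1.5-fold higher, against 4.08% of all genes, and 0 were lower, against 7.03%. METTL3 passed the threshold after rescaling to equal totals, at 0.78, and when ribosomal protein genes were left out of those totals, at 0.72, where the median of all genes was 0.29 and 0.22. After the rescaling 2 writer genes were higher, METTL3 and ZC3H13, against 18.6% of all genes.

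The other values were 0.23 for WTAP (counting SE 0.083), 0.17 for CBLL1 (0.17), 0.16 for METTL14 (0.13), 0.15 for METTL16 (0.14), 0.13 for VIRMA (0.12), 0.06 for RBM15B (0.067) and -0.12 for RBM15 (0.21). WTAP, METTL3 and ZC3H13 were the genes whose 95% counting interval left out 0. In all, 8 of 9 were above 0, against 48.9% of all genes. RBM15 turned to 0.17 after rescaling to equal totals, where the median of all genes was 0.29. The median over the 9 was 0.16, beside -0.01 over all genes.

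This ratio also moved with coding length, with Spearman's rho of 0.46 across the 10278 genes, and its part in the writer values was not tested. Set beside genes within 20% of its coding length, METTL3 lay at percentile 92.4, WTAP at 82.6, CBLL1 at 70.1 and METTL14 at 69.4. ZC3H13, with 5007 coding bases, lay at percentile 88.2 of 399 such genes, whose median was 0.25. VIRMA, RBM15B and RBM15 lay at percentiles 27.5, 34.3 and 13.1 of theirs, and METTL16 at 62.9.

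The genes whose pattern over the 4 libraries was most like that of METTL3 were taken by the distance between log2 values centred on each gene's mean, among 5272 mRNAs with a mean of at least 10 FPKM. FEN1, a flap endonuclease of DNA replication, was nearest, at a distance of 0.26. It had 30.4 and 121 FPKM in the WT sub-polysome and polysome libraries and 20.1 and 93.4 FPKM in K177Q cells. BOP1, a ribosome biogenesis factor, and PTGR1, a prostaglandin reductase, followed, at 0.45 and 0.46. Both were higher in polysomes in both genotypes, with log2 ratios of 1.76 and 2.12 for BOP1 and 1.86 and 2.22 for PTGR1.

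Other genes of the m6A pathway were taken from fixed lists. In translation efficiency, 4.08% of all genes were at least 1.5-fold higher in K177Q cells and 7.03% at least 1.5-fold lower. Of the 5 genes for other RNA m6A methyltransferases and their partners, METTL4 was the one past 1.5-fold in translation efficiency, lower in K177Q cells at -0.81, with 1.25 and 1.35 FPKM in WT and 1.33 and 0.773 FPKM in K177Q cells. The highest polysome ratio in WT cells was that of TRMT112, the activating partner of several methyltransferases, at 0.59, and in K177Q cells that of PCIF1, which methylates the cap-adjacent adenosine, at 0.42. The lowest were METTL5, which modifies 18S rRNA, at -0.15 in WT and METTL4 at -0.72 in K177Q cells.

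Of 6 genes of the S-adenosylmethionine cycle, 5 passed the minimum. Of these, 0 passed 1.5-fold in translation efficiency, against 4.08% of all genes higher and 7.03% lower. MAT2A, the mRNA that METTL16 methylates, had 19.3 and 23.7 FPKM in WT and 15.6 and 22.4 FPKM in K177Q cells. Its log2 ratio of translation efficiency, K177Q to WT, was 0.22. AHCY, which clears the by-product of methyl transfer, had the highest polysome ratios of this list, 1.22 in WT and 0.86 in K177Q cells, and AHCYL1 the lowest, 0.02 and 0.19.

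Of 12 reader genes, whose proteins bind m6A, 11 passed the minimum, IGF2BP1 being listed at 0. Of the 11, 0 passed 1.5-fold in translation efficiency, against 4.08% of all genes higher and 7.03% lower. Their median was 0.13, beside -0.01 over all genes, and 8 were above 0, against 48.9% of all genes. PRRC2A had the highest value, 0.582, and FMR1 the next, 0.566. Both lay just under the log2 threshold of 0.585, beside 0.593 for ZC3H13. In K177Q against WT in the sub-polysome fraction, all but 1 of the 11 were below 0, against 50.6% of all genes. FMR1, at -0.60, was the 1 at least 1.5-fold lower, against 2.94% of all genes. The median of the 11 there was -0.17, beside -0.19 over the 9 writer genes. The highest polysome ratios were those of HNRNPA2B1 in WT, 1.22, and PRRC2A in K177Q cells, 1.26, and IGF2BP2 was lowest in both, at -0.82 and -0.81. Of the 2 erasers, which remove m6A, FTO was at 0.18 and ALKBH5 at 0.14 in translation efficiency. ALKBH5 was lower in polysomes, at -0.92 in WT and -0.78 in K177Q cells, and FTO higher, at 0.47 and 0.65.

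Of 24 other genes with METTL in their name, 16 passed the minimum. Their median log2 ratio of translation efficiency was -0.14, beside -0.01 over all genes, with 4 above 0, against 48.9% of all genes. METTL22 was the one past 1.5-fold higher, at 0.67, against 4.08% of all genes. METTL4 was the one past 1.5-fold lower, against 7.03%. Their highest polysome ratios were 0.86 for METTL17 in WT and 1.06 for METTL18 in K177Q cells, so METTL3, at 2.03 and 2.52, was above each of the 16 in both genotypes. The METTL3 ratios include the introduced transcript, which those of the 16 do not. METTL25, which did not pass the minimum, was at 2.02 in WT, close to METTL3, and at 1.47 in K177Q cells. The lowest were -1.10 for METTL9 in WT and -1.26 for METTL26 in K177Q cells.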

How the data were processed

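The authors deposited 1 table of FPKM (fragments scaled to transcript length and library total) per gene. The submitters' processing notes name STAR 2.7, StringTie 2.1.5 and hg38. The annotation is not given in the sources used here. Columns were matched to samples by title, and 4 value columns, named like those of the 4 libraries but with a 1 in place of the 2, match no listed sample and were not analysed here. Log2 ratios were taken after adding 0.1 FPKM, keeping genes whose average over the 4 libraries reached 1 FPKM, with 1.5-fold as threshold. With 1 library per group, nothing was tested.

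Depth was approximated: for genes with 1 transcript, FPKM times transcript length clustered between 30 and 55, limits set after looking at the values, and the median of the cluster was taken as 1 fragment. Gene positions, lengths and sequences are those of canonical transcripts in GENCODE 44 on GRCh38, matched by symbol or older symbol; 94.3% of measured genes had a coding length, given without the stop codon.

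The writer genes and all lists were chosen with earlier results of these data known. Named from the lists were MAT2A, genes past 1.5-fold in translation efficiency, the highest and lowest polysome ratio of each list, and the 3 genes nearest METTL3. METTL25 was added because its WT polysome ratio was close to that of METTL3. FMR1 was added because its translation efficiency value lay just under the threshold. The alternatives were other pseudocounts, scalings, minimum levels and a 2-fold threshold. The calculation was tested on simulated data. Python 3.11.15, pandas 2.3.3, numpy 2.4.6, scipy 1.17.1 and matplotlib 3.10.9 were used.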

Additional observations from a re-analysis of the deposited data

Results flagged for a closer look

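For 3 writer genes the log2 ratio of K177Q to WT had opposite signs in the sub-polysome and the polysome fraction, with 1 library on each side. CBLL1 was at -0.17 in the sub-polysome and 0.0056 in the polysome fraction. METTL16 was at -0.14 and 0.0070. RBM15 was at 0.09 and -0.027. The difference between the fractions was not tested, and the 95% counting interval of each value holds 0. For RBM15 both signs depended on the scaling, since rescaling to equal totals gave -0.11 in the sub-polysome and 0.06 in the polysome fraction. Relative to the median of all genes, RBM15 was at 0.09 and -0.005 before that rescaling and at 0.10 and -0.007 after it. CBLL1 and METTL16 had these signs under each alternative tried.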

How the results depend on the processing

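No paired analysis was possible because every group analysed here was a single library, and for the same reason no replicate could be left out. Of 270 values of single writer genes under alternatives, 228 stayed within the 95% counting interval of the value reported, 42 moved further and 0 of those past 1.5-fold changed sign, while 17 smaller values did. Numbers of writer genes past the threshold changed as follows. Shares of all genes were taken only for the settings reported above and for rescaling to equal totals. The other counts have no such share beside them, so a change in them cannot be read as particular to the writer genes. A 2-fold threshold left 1 gene in WT and 1 in K177Q cells for polysome against sub-polysome, METTL3 in both, and 0 for K177Q against WT in the sub-polysome fraction and in translation efficiency. A minimum mean of 5 FPKM left 3 writer genes, of which 1 was past 1.5-fold in each of WT polysome against sub-polysome, K177Q polysome against sub-polysome and K177Q against WT in the sub-polysome fraction, and 0 in translation efficiency. A pseudocount of 1 gave 2 genes in place of 3 in WT and 2 in place of 4 in K177Q polysome against sub-polysome, 1 in the sub-polysome comparison and 0 in translation efficiency. Centring took the K177Q count from 4 to 3, without ZC3H13, and equal totals without ribosomal protein genes turned it from 3 higher and 1 lower to 4 higher and 0 lower, with METTL16 in and RBM15 out. In translation efficiency, rescaling to equal totals (TPM) gave 2, equal totals without ribosomal protein genes 2, and median-of-ratios size factors 0. With a pseudocount of 1, METTL3 was at 2.74 and 9.79 times METTL14 in the WT sub-polysome and polysome libraries and at 1.77 and 7.67 times in those of K177Q cells. The FPKM give no counts, so depth bounds only counting error, and the writer genes had from about 155 fragments (RBM15, K177Q polysome) to 2087 (RBM15B, WT sub-polysome) behind a value.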
